A study of Homo sapiens with 6 samples.

Results

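SMARCA4 peaks at the 3' ends of protein-coding genes were described in K562 cells. A peak was counted here when its midpoint lay within 1 kb of the 3' end of a coding gene record, more than 1 kb from every annotated transcript start and outside coding sequence (CDS). Of the 28265 peaks of the list, 417 met this rule (1.48%, 95% Wilson interval 1.34 to 1.62%). The rule used position alone, and not the width of a peak, its motifs or the promoter of the same gene. Of the remaining peaks, 13913 lay within 1 kb of a transcript start, 199 had their midpoint in CDS, and 13736 lay away from starts, CDS and coding 3' ends and are called other distal peaks. With the ends of all coding transcripts in place of gene records, 640 peaks met the rule, and within 500 bp of an end, 228.

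The cells were of the K562 line, from a chronic myelogenous leukaemia, which has erythroid and megakaryocytic features. Chromatin immunoprecipitation with an antibody to SMARCA4 was sequenced in 3 libraries, and 3 input libraries had no antibody. Crosslinking took 30 min in disuccinimidyl glutarate at 2 mM and then 10 min in formaldehyde at 1%, and chromatin was sheared to fragments of 150 to 400 bp in both groups. The list joins the 3 replicates by keeping regions found in at least 2 of them, so it holds no height and no value per replicate, the library depth cannot be read from it, and intervals and p-values below cover counting error only. Peaks and genes are not replicates of the experiment. The sources call the 3 libraries biological replicates in one place and technical in another.

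SMARCA4 (BRG1) is an ATPase of the SWI/SNF complexes, which move or evict nucleosomes and are best known from promoters and enhancers. At a 3' end, RNA polymerase II passes a poly(A) signal, the transcript is cleaved and polyadenylated, and the polymerase runs on before it is released. The sequence around the signal is typically A+T-rich.

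The sequences shown first are those of named peaks in which the motifs compared later were found, read from hg19 and written 5' to 3' on the strand given, with the motif in capitals. A G4 motif is 4 runs of at least 3 G with loops of 1 to 7 bases, a sequence that can fold into a G-quadruplex. The other motifs were the GATA factor motif (AGATAA or AGATAG as well as TGATAA or TGATAG), AP-1 (TGACTCA or TGAGTCA), the 11-base core of the CTCF motif, the SP/KLF motif (GGGCGG), ETS (CCGGAAGT), an E-box (CAGCTG), RUNX (TGTGGTTT), the poly(A) signal (AATAAA) and a run of 5 G, all on both strands. A G4 motif can contain a run of 5 G and GGGCGG, and is then counted under each. Windows of the central 200 bases are given for the 3 widest named peaks that touched no untranslated region (UTR). They lay 777 bp downstream of HSPB7 (a small heat shock protein) and 585 bp downstream of STAT3, both outside all transcripts, and 700 bp downstream of CD84 (a receptor of haematopoietic cells), in an intron of another transcript. The capitals mark G4 motifs at HSPB7, an SP/KLF motif at STAT3, and E-box, GATA and RUNX motifs at CD84, while runs of 5 G are not marked.
HSPB7 window, chr1:16339647-16339846, plus strand: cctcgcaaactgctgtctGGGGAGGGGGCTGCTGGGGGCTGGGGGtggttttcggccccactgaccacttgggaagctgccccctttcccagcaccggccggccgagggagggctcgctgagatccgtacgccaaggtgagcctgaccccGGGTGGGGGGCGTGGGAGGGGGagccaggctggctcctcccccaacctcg
STAT3 window, chr17:40464658-40464857, plus strand: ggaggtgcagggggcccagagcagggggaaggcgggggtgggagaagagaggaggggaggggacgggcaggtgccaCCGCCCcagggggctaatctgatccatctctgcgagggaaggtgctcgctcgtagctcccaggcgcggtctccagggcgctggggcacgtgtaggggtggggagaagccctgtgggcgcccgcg
CD84 window, chr1:160510086-160510285, plus strand: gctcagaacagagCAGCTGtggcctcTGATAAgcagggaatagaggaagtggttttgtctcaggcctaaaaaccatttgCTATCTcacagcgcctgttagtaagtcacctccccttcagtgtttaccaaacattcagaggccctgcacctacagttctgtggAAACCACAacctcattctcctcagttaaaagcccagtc

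Single motif sites follow, with 6 bases on either side except for G4 motifs, which are given alone. They were chosen to show CTCF, AP-1, GATA, G4 and poly(A) signal motifs at peaks named below. The EGFL7 site lay in an intron, 1 bp from the peak centre. The STAT3, FTH1, KLF1, BCL2L11, HHEX and ZFP36L2 sites lay downstream of the gene. The MAGIX and TUBGCP2 GATA motifs lay 11 and 9 bp from the peak centre, and the DDIT4 and TXNIP poly(A) signals 29 and 14 bp from it, each just upstream of the annotated gene end.
EGFL7 CTCF, chr9:139566231-139566253, minus strand: aagtgtCCACTAGAGGGggctgc
STAT3 CTCF, chr17:40464393-40464415, plus strand: cagagaCCAGCAGGTGGcaccac
FTH1 AP-1, chr11:61726701-61726719, plus strand: aggcagTGACTCAgccgag
FTH1 GATA, chr11:61726689-61726706, plus strand: gaggtgAGATAAaggcag
KLF1 AP-1, chr19:12994712-12994730, plus strand: agaagcTGACTCAgcaact
BCL2L11 AP-1, chr2:111926244-111926262, plus strand: cagataTGACTCAgcactt
HHEX AP-1, chr10:94455760-94455778, plus strand: accggcTGAGTCAacaccg
ZFP36L2 AP-1, chr2:43449209-43449227, plus strand: actcagTGACTCAcaggca
KLRF2 GATA, chr12:10047925-10047942, plus strand: ggctagAGATAAgggaga
MAGIX GATA, chrX:49025099-49025116, minus strand: tttttgAGATAAggtctc
TUBGCP2 GATA, chr10:135092137-135092154, plus strand: ggttgcTGATAAatgtgt
BCL2L11 G4, chr2:111926263-111926286, plus strand: GGGTGGGGAGTTGTGGGGGCAGGG
DDIT4 poly(A) signal, chr10:74035767-74035784, plus strand: ttttctAATAAAcatgtt
TXNIP poly(A) signal, chr1:145442602-145442619, plus strand: aatgaaAATAAAgttttt

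The 3' end peaks were spread over the gene end and its flank. Their midpoints lay at a median of 452 bp (95% interval of the median 409 to 503 bp) from the nearest 3' end, and 252 (60.4%) were downstream and 165 (39.6%) upstream of it. In 80 cases (19.2%) the peak itself covered the annotated end. The midpoint was in a 3'-UTR in 142 peaks (34.05%), in an intron in 73 (17.5%), in an exon of a non-coding transcript in 14 (3.36%) and outside all transcripts in 188 (45.1%). Of the other distal peaks, 60.9% were intronic, 34.96% were outside all transcripts and 1.405% were in a 3'-UTR, a difference that the rule itself brings about. A single coding gene record ended within 1 kb of 385 peaks, whereas 31 peaks had 2 such records and 1 had 3. In 24 of these 32 cases the records lay on opposite strands. By chromosome, the share of peaks that were 3' end peaks was highest on chromosome 19 (68 of 2006, 3.39%, 2.68 to 4.275%) and 17 (43 of 1654, 2.60%, 1.94 to 3.48%). Reads cut from the peaks could be placed at a single position in at least 95% of cases for 374 of 417 peaks (89.7%), as against 89.2% of other distal peaks.

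Peaks were denser at 3' ends than in the surrounding sequence. Per Mb of sequence that could hold a member, 13.95 peaks (95% Poisson interval 12.65 to 15.4) lay within 1 kb of an end, from 417 peaks in 29.9 Mb, and 10.9 (10.5 to 11.4) lay 1 to 10 kb away, from 2417 peaks in 221.4 Mb. The ratio of the densities was 1.28 (exact conditional 95% interval 1.15 to 1.42). This ratio was not the same at all distances from a transcript start: it was 1.405 (1.14 to 1.72) at 1 to 2 kb from the nearest start, 1.45 (1.23 to 1.71) at 2 to 5 kb, 0.990 (0.807 to 1.204) at 5 to 20 kb and 0.555 (0.249 to 1.08) beyond 20 kb, where only 9 members lay. These distance classes were chosen after seeing the data. The classes nearest to a start, where the ratio was above 1, held 114 and 181 of the 417 peaks. Pooled over the 4 classes the ratio was 1.24 (1.11 to 1.37).

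The downstream side held more peaks per Mb than the upstream side. Within 1 kb the density was 11.7 (10.0 to 13.7) upstream and 15.9 (14.0 to 18.03) downstream, a ratio of 0.736 (0.601 to 0.899). For ends within 500 bp the interval of this ratio included 1 (0.772, 0.587 to 1.013). The same asymmetry was seen farther out, with 9.53 peaks per Mb at 1 to 10 kb upstream and 12.2 at 1 to 10 kb downstream (ratio 0.779, 0.718 to 0.845). Relative to its own flank, the density near the end was 1.23 times as high upstream (1.04 to 1.45) and 1.303 times as high downstream (1.13 to 1.49). The plot of density by distance shows both the step between the sides and the rise at the end.

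**Figure D1:**
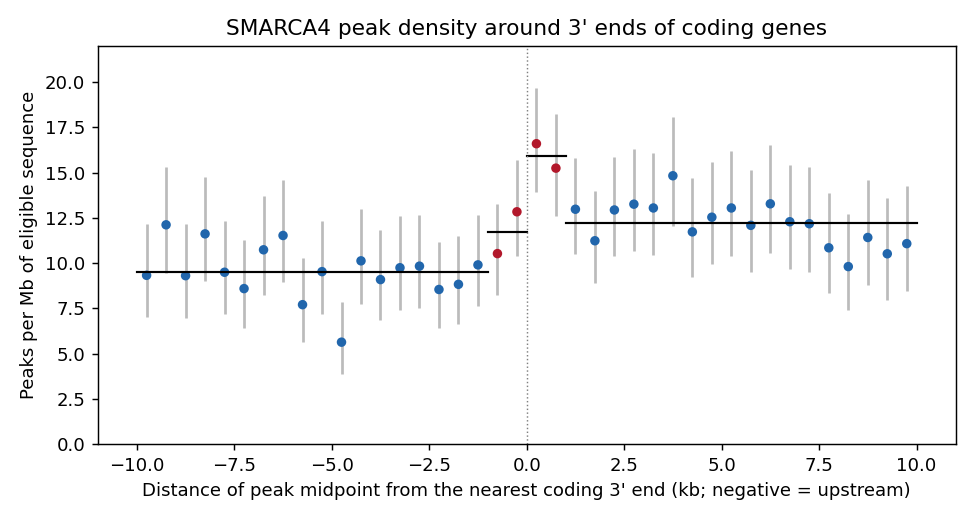
SMARCA4 peak midpoints per Mb of eligible sequence (over 1 kb from every transcript start and outside CDS) in bins of 500 bp by distance from the nearest coding 3' end; red, within 1 kb; blue, 1 to 10 kb; grey bars, 95% Poisson intervals; black lines, the density of each of the 4 regions. The density within 1 kb was 11.7 upstream and 15.9 downstream, against 9.53 and 12.2 in the flanks.

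Most genes with a 3' end peak also had a promoter peak, that is, a peak with its midpoint within 1 kb of a transcript start of the same gene. The 417 peaks lay at the ends of 418 coding gene records, of which 7 had under 500 eligible bases around the end and were left out of gene counts. A 3' end peak was found at 411 (2.28%) of the 18058 coding genes that could hold one, and a promoter peak at 46.6% of the same genes. Of the 411 genes, 282 had a promoter peak (68.6%, Wilson interval 64.0 to 72.9%). Among the 17647 genes without a 3' end peak, 8127 had one (46.05%, 45.3 to 46.8%). The difference was 22.6 percentage points (Newcombe interval 17.9 to 26.9).

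Genes with a peak elsewhere in the body had promoter peaks about as often. Of 3952 genes with a body peak away from the promoter and none at the 3' end, 2729 had a promoter peak (69.05%, 67.6 to 70.5%), a difference of -0.4405 percentage points (-5.295 to 4.10) from genes with a 3' end peak. Of 13695 genes with neither, 39.4% had one. A further body peak was also more frequent at genes with a 3' end peak, at 157 of 411 (38.2%) against 22.4% of the others. When these 157 genes were set aside, 160 of the remaining 254 genes (63.0%, 56.9 to 68.7%) had a promoter peak.

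The difference in promoter peaks was widest among short genes. Genes with a 3' end peak were shorter, with a median length of 16923 bp (14645 to 18966 bp) against 29628 bp (28838 to 30487 bp). Under 5 kb, 55 of 74 genes with a 3' end peak had a promoter peak (74.3%) against 22.03% of those without, which is 52.3 percentage points more (41.2 to 61.0). The difference was 18.8 points (10.9 to 26.1) at 5 to 20 kb, 15.5 points (7.57 to 22.5) at 20 to 100 kb and 26.1 points (9.52 to 38.4) at 100 kb or more. In each of these 4 length classes, which were chosen after seeing the data, the interval of the difference lay above 0. Where a promoter peak was present, the widest one had a median of 629.5 bp (576 to 692 bp) at genes with a 3' end peak and 522 bp (515 to 530 bp) at the others.

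**Figure D2:**
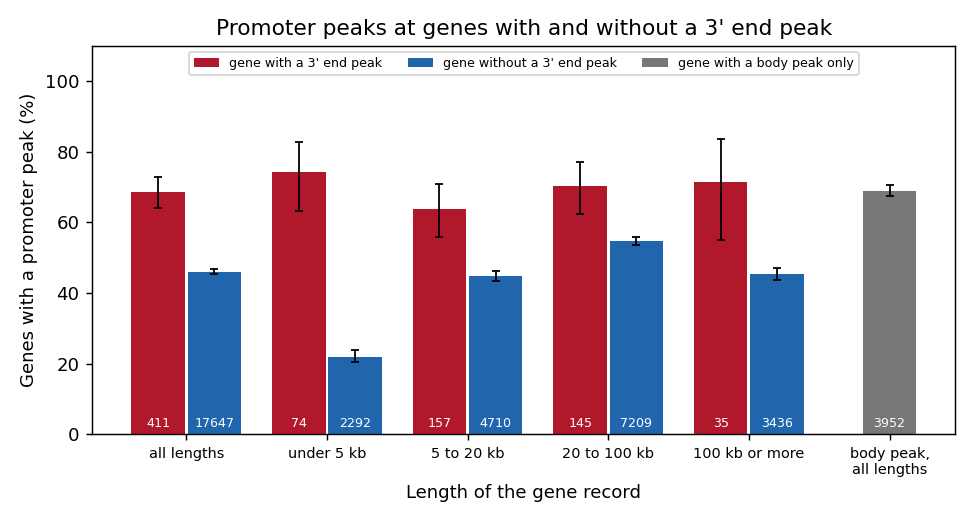
Share of coding genes with a promoter peak, in percent, for genes with a 3' end peak (red), genes without one (blue) and genes with a body peak and no 3' end peak (grey), by length of the gene record; black bars, 95% Wilson intervals; white numbers, genes per bar. The share was 68.6% with a 3' end peak, 46.05% without and 69.05% with a body peak only.

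Counted by peak and nearest gene, 288 of the 417 peaks (69.1%) had a promoter peak at the same gene, at a median distance of 13618 bp between midpoints (10332 to 16106 bp), with a range of 725 to 383966 bp. The share was 71.0% (65.2 to 76.3%) for downstream and 66.1% (58.5 to 72.9%) for upstream peaks, and 66.9% for peaks in a 3'-UTR, 69.9% for intronic ones and 69.15% for those outside all transcripts. It was 77.2% (68.7 to 83.9%) for the 114 peaks at 1 to 2 kb from the nearest start of any gene, 68.5% at 2 to 5 kb, 61.95% (52.7 to 70.4%) at 5 to 20 kb and 66.7% (6 of 9, 35.4 to 87.9%) beyond 20 kb. These intervals overlap, which does not show that the shares are equal, and the differences were not tested. Peaks with and without a promoter peak at their gene had a median width of 323.5 and 351 bp and a median GC of 51.75 and 54.5%. GC was above the median of all peaks in 42.0% (36.5 to 47.8%) and 50.4% (41.9 to 58.9%) of them, and a GATA motif was in the central 200 bp of 44.8 and 42.6%, differences that were not tested.

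For 129 peaks the gene of the nearest 3' end had no promoter peak. The start nearest to these peaks belonged to another gene in 79 cases (61.2%), and in 27 cases (20.9%) the nearest start of any gene had a peak within 1 kb. Examples were HSPB7 with peaks of 1043 and 224 bp, CD84 with peaks of 937 and 150 bp, and CYP26A1, which encodes a retinoic acid hydroxylase, with a peak of 549 bp. HPGDS (a prostaglandin D synthase of haematopoietic cells, 424 bp), KLRF2 (289 bp) and TLE7 (378 bp) also had no promoter peak. Over all members the nearest start was that of the same gene in 176 cases (42.2%). Another peak lay within 5 kb of 59.7% of members (54.9 to 64.3%) against 43.7% (42.9 to 44.5%) of other distal peaks. Members also lay nearer to a start of any gene, at a median of 3357 bp (3028 to 3859 bp) against 7472 bp (7298 to 7679 bp). The shares with another peak were not matched for this distance.

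Several of the widest 3' end peaks lay at genes that SMARCA4 peaks covered over a large part of their length. The widest was 2653 bp at DDIT4, a stress-induced inhibitor of mTORC1 signalling (chr10:74034478-74037130), with its midpoint 10 bp past the gene end. This peak and the promoter peak of 2357 bp together covered 93.5% of the 2117 bp of the gene record. HSPA5, the chaperone BiP of the endoplasmic reticulum, had a 3' end peak of 1821 bp (chr9:127997171-127998991, 3'-UTR) and was covered over 52.7% of its 6530 bp by 3 peaks. Coverage was close to this at H3-3B, a gene of the replacement histone H3.3 (1772 bp peak, 50.3%), TNFRSF12A, the receptor of TWEAK (1763 bp, 49.8%), SMIM1, which carries the Vel blood group antigen (1593 bp, 52.8%), and PIM1, a kinase gene induced by STAT signalling (1543 bp, 52.2%). The TNFRSF12A peak also lay within 1 kb of the end of HCFC1R1. ACTB, beta-actin (1568 bp), was covered over 22.3%. NFIX, a nuclear factor I gene (2014 bp), and ARMC6 (1495 bp) were covered over 4.64 and 4.84% of records of 103322 and 26737 bp. The ARMC6 peak is uncertain, since 82.5% of reads cut from it could be placed at a single position, and this share was 92.65% at H3-3B and 93.2% at PIM1.

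Each of these 9 genes had at least 1 promoter peak. Of the 19 members of at least 1000 bp, 16 (84.2%, 62.4 to 94.5%) had a promoter peak at the same gene. The share was 71.25% (60.5 to 80.0%) for the 80 members under 200 bp. The intervals overlap, and the difference was not tested. At the genes of the 5 widest, the 3' end peak was separate from the promoter peak in the list. The map of these peaks leaves out the start of the gene record at NFIX and H3-3B, which falls outside its range. At DDIT4 the distance between their midpoints was 2642 bp, but the edges were close. Relative to the gene end, the promoter peak ended at -1454 bp and the 3' end peak began at -1316 bp. At TNFRSF12A the nearest promoter peak ended at -1286 bp and the 3' end peak began at -1272 bp. Both gaps were smaller than the 500 bp used when peaks were merged.

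**Figure D3:**
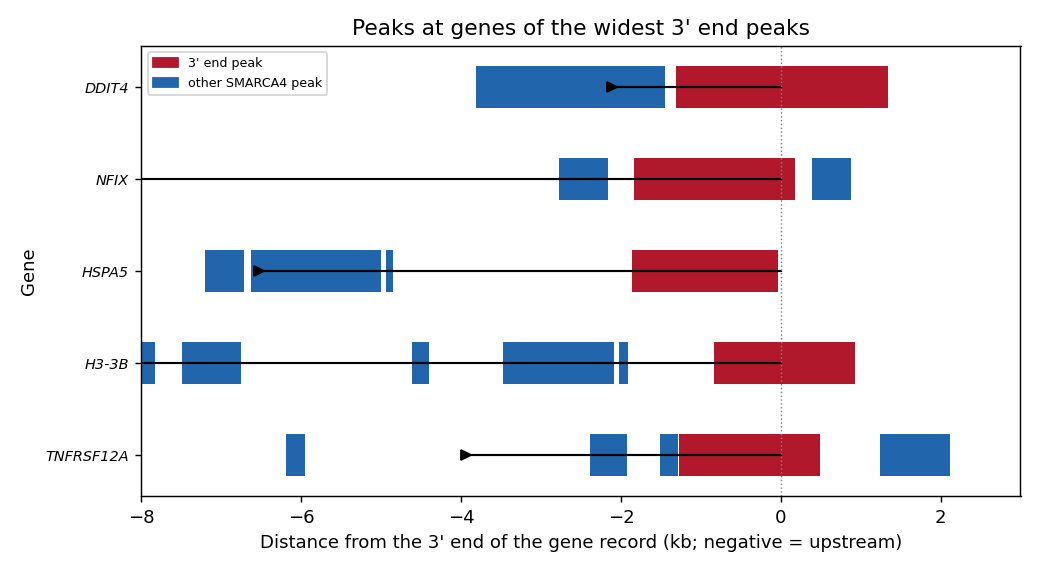
SMARCA4 peaks at the genes of the 5 widest 3' end peaks, by distance from the 3' end of the gene record in kb, all genes drawn from left to right; red, 3' end peaks; blue, other peaks; black line, gene record; arrowhead, its start where it falls in range. At DDIT4 the promoter peak and the 3' end peak together covered 93.5% of the gene record.

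Several 3' end peaks at 1 gene were found at 30 records, of which 20 (66.7%, 48.8 to 80.8%) had a promoter peak. Peaks that lay close together were counted singly here. Merging peaks at most 500 bp apart gave 361 members in place of 417, and the count of records was not repeated with them. GADD45A, a gene of the DNA damage response, had peaks of 110, 264 and 932 bp at 950 and 460 bp upstream and 391 bp downstream of its end, and a promoter peak of 2417 bp. FCGR3B, a low-affinity IgG Fc receptor, also had 3 (579, 357 and 56 bp) and no promoter peak. It has a near-identical neighbour, FCGR3A, and of reads cut from these peaks 81.0, 83.3 and 0% could be placed at a single position, so these 3 peaks are uncertain. Genes with 2 peaks included AIMP2, AK4, AKT1S1, ANXA6, CD84, EGFL7 and EIF1. At AIMP2 and EGFL7 the second peak was shared with the convergent neighbour, EIF2AK1 and AGPAT2 respectively. AK4 (adenylate kinase, 1274 and 342 bp) and ANXA6 (annexin A6, 916 and 167 bp) had promoter peaks of 336 and 297 bp, which were narrower than their widest 3' end peak. At EIF1, a translation initiation factor gene, the 3' end peaks of 27 and 325 bp compared with a promoter peak of 2270 bp. Of reads cut from the wider of these 3' end peaks, 81.8% could be placed at a single position, so it is uncertain too.

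Genes of the 7 lists chosen for K562 biology had 3' end peaks at 18 of 171 genes (10.5%), beside 2.28% of all coding genes that could hold one. They had promoter peaks at 146 of 171 (85.4%), beside 46.6%, and 16 of the 18 had both. The lists were chosen with earlier results of these data known, so these counts describe the lists only and were not tested.

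Of erythroid and megakaryocyte transcription factors, 4 of 22 (18.2%) had a 3' end peak and 16 (72.7%) a promoter peak. GATA1, the master regulator of erythroid genes, had a peak of 118 bp at 221 bp past its end (chrX:48652881-48652998). KLF1, an activator of adult globin genes, had one of 350 bp at 610 bp downstream (chr19:12994452-12994801), in an intron of another transcript, with an AP-1 motif and a G4 motif and a promoter peak of 975 bp. HHEX, a homeobox gene of early haematopoiesis, had 494 bp at 350 bp downstream (77.0% GC, 29 CpG in the central 200 bp), and FOXO3, a forkhead factor of erythroid maturation, had 198 bp at 160 bp downstream. All 4 genes had a promoter peak.

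Globin, haem and iron genes gave 3 of 27 (11.1%) with a 3' end peak and 25 (92.6%) with a promoter peak. At FTH1, the ferritin heavy chain, a peak of 199 bp lay 502 bp downstream (chr11:61726589-61726787), with the AP-1 and GATA motifs shown above, and the promoter peak was 2106 bp wide. At HBG1, a fetal globin gene, a peak of 417 bp lay 708 bp downstream, and the promoter peak was 219 bp wide. SLC25A37, the mitochondrial iron importer mitoferrin-1, had a peak of 193 bp in its 3'-UTR. Of 24 listed red cell membrane and surface genes, 0 had a 3' end peak, which allows a share of up to 12.5%, whereas 19 had a promoter peak. The share over all coding genes that could hold one, 2.28%, lies below that limit. SMIM1, the blood group gene with a wide 3' end peak named above, was not on this list.

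Among JAK-STAT, survival and BCR-ABL1 signalling genes, 6 of 29 (20.7%) had a 3' end peak and 24 (82.8%) a promoter peak. STAT3 and STAT5A, transducers of cytokine signals, end towards each other. The peak of 947 bp at chr17:40464284-40465230 lay within 1 kb of both ends, STAT5A had a further peak of 357 bp in its 3'-UTR, and STAT3 a further one of 185 bp. STAT3 had 4 promoter peaks and STAT5A 0. The kinase gene LYN (530 bp, 3'-UTR) and the apoptosis genes BAX (346 bp, 736 bp downstream) and BCL2L11 (422 bp, 299 bp downstream) had promoter peaks, as did PIM1. The BCL2L11 peak (chr2:111926110-111926531) lay 46155 bp from the nearest promoter peak of that gene and held 1 AP-1 and 1 G4 motif.

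AP-1 and immediate early genes gave 4 of 25 (16.0%) with a 3' end peak and 22 (88.0%) with a promoter peak. JUNB, an AP-1 subunit, had 3' end peaks of 413 and 200 bp at 379 and 756 bp downstream, with 74.5 and 77.5% GC, both in an intron of another transcript. FOSL1, an AP-1 subunit, had 1 of 338 bp that covered the end and also lay near the end of CCDC85B. ZFP36L2, an RNA-binding factor, had 1 of 455 bp at 357 bp downstream. DUSP6, a phosphatase of ERK, had 1 of 209 bp and no promoter peak. All 21 SWI/SNF subunit genes that could be scored had a promoter peak, but a 3' end peak was found at ACTB alone (4.76%). Of 23 genes of cleavage, polyadenylation and termination factors, 19 had a promoter peak and 0 a 3' end peak, which allows up to 13.04%.

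The 3' end peaks were richer in G+C than other distal peaks, and no difference in width was found (2-sided tests). Their median width was 336 bp (306 to 368 bp) against 341 bp (337 to 346 bp), and 44.8% against 45.15% were wider than the median of the whole list, 368 bp (odds ratio 0.988, 95% Woolf interval 0.812 to 1.201, Fisher's exact test, exact adjusted p = 0.921 over 3 measures). Median GC of the central 200 bp was 52% (50 to 54%) against 46.5%, and 186 of 417 (44.6%) against 20.5% were above the median of all peaks, 54% (odds ratio 3.13, 2.57 to 3.81, exact adjusted p = 4.32e-27). More than 6 CpG were found in 119 (28.5%) against 14.5% (odds ratio 2.36, 1.895 to 2.93, exact adjusted p = 6.3e-13). Distance from the nearest start, which differed between 3' end peaks and other distal peaks, was not matched here or for the motifs below. Against all other peaks of the list, including those at promoters, the direction turned for CpG (odds ratio 0.449) and for GC (0.839). Median GC was 65.5% in peaks within 1 kb of a start, and 43.5% in windows of 200 bp near 3' ends that touched no peak, so 3' end peaks were between them.

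**Figure D4:**
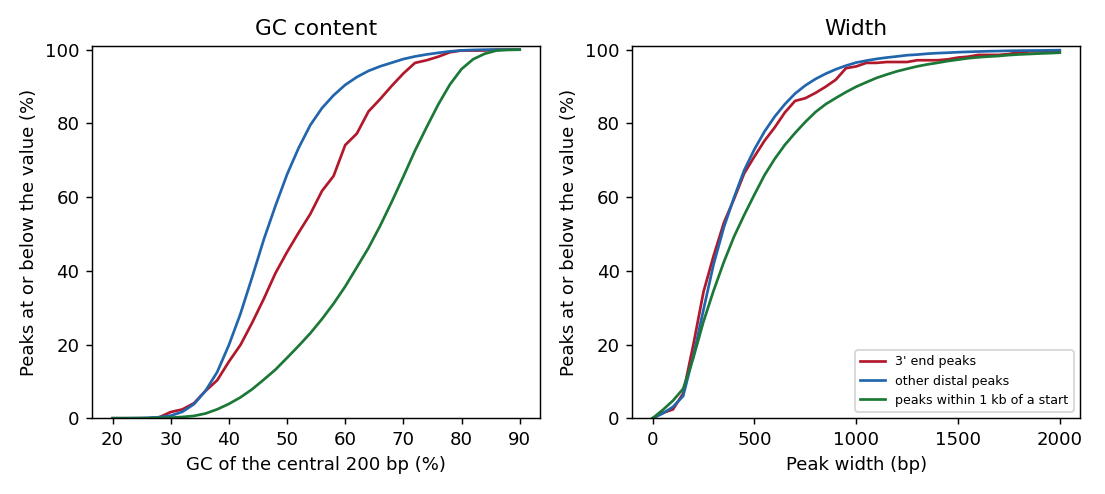
Cumulative share of peaks by GC of the central 200 bp in percent (left) and by width in bp (right) for 3' end peaks (red), other distal peaks (blue) and peaks within 1 kb of a start (green). Median GC was 52.0, 46.5 and 65.5% in this order, and the red and blue curves of width lie close together.

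Of the 10 motifs, 5 differed between 3' end peaks and other distal peaks in the central 200 bp (two-sided Fisher's exact test, p adjusted over the 10). The GATA motif was less frequent, in 184 of 417 peaks (44.1%, 39.4 to 48.9%) against 62.8% (odds ratio 0.467, 0.384 to 0.569, exact adjusted p = 2.625e-13). More frequent were a run of 5 G, in 184 peaks (44.1% against 29.4%, odds ratio 1.89, exact adjusted p = 2.18e-09), the SP/KLF motif, in 80 (19.2% against 9.46%, odds ratio 2.27, exact adjusted p = 8.11e-09), the G4 motif, in 41 (9.83% against 4.66%, odds ratio 2.23, exact adjusted p = 3.18e-05) and the CTCF motif, in 26 (6.235% against 2.75%, odds ratio 2.35, exact adjusted p = 0.000461). The motifs that did not pass were AP-1, in 68 (16.3% against 19.4%, odds ratio 0.811, exact adjusted p = 0.163), the E-box, in 82 (19.7% against 15.8%, odds ratio 1.304, exact adjusted p = 0.06865), ETS, in 4, RUNX, in 9, and the poly(A) signal, in 70 (16.8% against 16.1%, odds ratio 1.05, exact adjusted p = 0.686). The E-box lay close to the threshold and passed in 6 of 11 alternatives, with an exact adjusted p from 0.00344 to 0.2885 over those that gave one. ETS passed in whole peaks alone (odds ratio 2.84, exact adjusted p = 0.0228).

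GC content moved with most of these differences. Within classes of GC of 2 percentage points, a comparison chosen after seeing the data, the pooled odds ratio was 1.05 (0.731 to 1.51) for the G4 motif, 1.08 (0.791 to 1.47) for SP/KLF and 1.23 (0.974 to 1.55) for the run of 5 G, and these intervals include 1. It was 0.702 (0.562 to 0.877) for GATA and 1.53 (1.005 to 2.34) for CTCF, and for the poly(A) signal it was 1.47 (1.105 to 1.95). For ends within 500 bp, the G4 difference did not pass (odds ratio 1.505, exact adjusted p = 0.1475), whereas the poly(A) signal did (1.51, exact adjusted p = 0.0277). When all other peaks of the list were taken in place of distal ones, 3' end peaks held fewer G4 (odds ratio 0.693) and SP/KLF motifs (0.548). In that comparison the run of 5 G (1.047, exact adjusted p = 0.654) and GATA, whose direction turned (1.18, exact adjusted p = 0.153), did not pass, while AP-1 (1.396, exact adjusted p = 0.0319), the E-box and the poly(A) signal (1.565, exact adjusted p = 0.00344) were more frequent.

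Set beside sequence near 3' ends that touched no peak (153666 windows of 200 bp), the central 200 bp of 3' end peaks held the GATA motif in 44.1% against 30.3%, AP-1 in 16.3% against 2.97%, CTCF in 6.235% against 0.374% and SP/KLF in 19.2% against 4.49%. The poly(A) signal was in 16.8% against 31.4%. These windows overlap where gene ends are close, so no test was made. In the whole list, GATA was held by 40.2%, AP-1 by 12.3%, CTCF by 2.18%, G4 by 13.5% and the poly(A) signal by 11.5% of central windows. GATA was in 43.0% of upstream and 44.8% of downstream members, and the poly(A) signal was in 20.6% (15.1 to 27.4%) of upstream and 14.3% (10.5 to 19.1%) of downstream members.

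**Figure D5:**
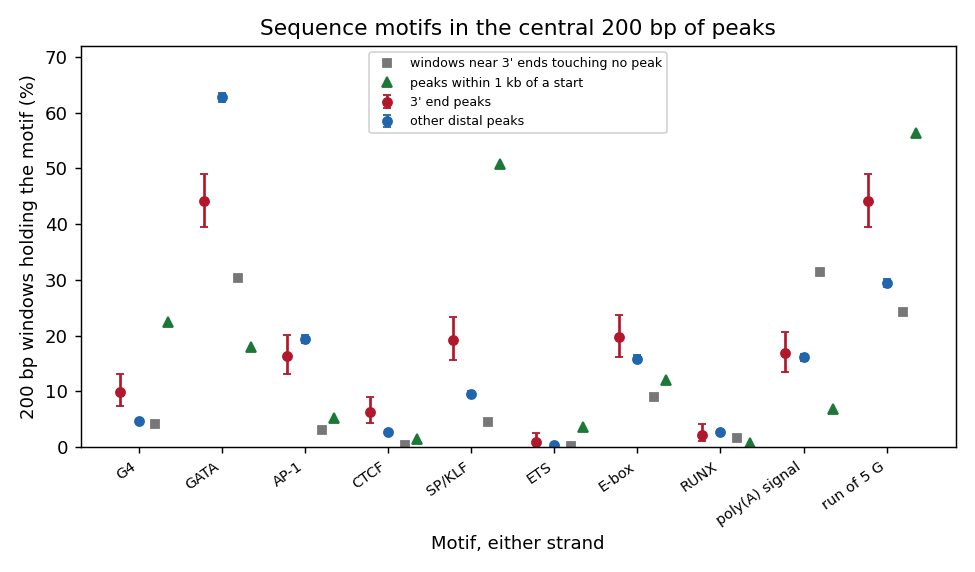
Share of 200 bp windows that hold each of 10 motifs on either strand, in percent, for 3' end peaks (red), other distal peaks (blue), windows near 3' ends that touch no peak (grey squares) and peaks within 1 kb of a start (green triangles); bars, 95% Wilson intervals. GATA was in 44.1% of 3' end peaks and 62.8% of other distal peaks, and CTCF in 6.235% and 2.75%.

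Motif-rich members showed how far single peaks differed. Among members with several G4 motifs in a whole peak were NFIX (6), SMIM1 (4), DDIT4 (3) and HSPB7 (3), each at least 1000 bp wide. Narrower peaks also held several, such as those at COPZ2 (3 in 595 bp) and HES7 (2 in 261 bp). Members with many GATA motifs in the central 200 bp were KLRF2, TLE7 and HPGDS with 4 each and CYP26A1 with 3, a number that other members shared. The central 200 bp of these 4 peaks had 37.0 to 49.0% GC, the peaks held 0 G4 motifs, and their genes had no promoter peak.

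Members at the end itself and at the limit of the rule are given as a description. The midpoints closest to an annotated end were at PAQR7 (2 bp), TUBGCP2 (3 bp), MAGIX (7 bp), DDIT4 (10 bp) and TXNIP (thioredoxin-interacting protein, 11 bp), and each of these 5 genes had a promoter peak. The MAGIX peak is uncertain, since 50% of reads cut from it could be placed at a single position, and this share was 93.1% at PAQR7. Just inside the limit were XYLT2 (998 bp upstream), SLC17A7 (993 bp upstream), LARS1 (978 bp upstream), and MEIOB and PLEKHG1 (each 976 bp downstream). Just outside it were peaks at 1005 bp from SIRT7, 1006 bp from DCST2, 1009 bp from GABRA3 and 1014 bp from EIF1. The widths were 209 to 583 bp inside and 226 to 597 bp outside.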

How the data were processed

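ChIP-seq of SMARCA4 in K562 was taken from the peak list deposited by the authors. Per their methods, reads were trimmed with cutadapt and aligned to hg19 with BWA, duplicates were marked with Picard, MACS2 called peaks per replicate at a q-value of 0.05 and regions of at least 2 of 3 replicates were kept with bedtools. The deposited list gives start and end positions in bp and no depth. Positions are given from 1. Gene ends, starts, CDS and UTRs were those of GENCODE v44lift37 (254376 transcripts, 20163 coding gene records). Python 3.11.15, numpy 2.4.6, scipy 1.17.1 and matplotlib 3.10.9 were used. A coding gene was scored if at least 500 of the 2001 bp around its end were over 1 kb from every start and outside CDS. Intervals are Wilson, Newcombe, Poisson, Woolf or Mantel-Haenszel at 95%, and tests are Fisher's with Benjamini-Hochberg adjustment at 0.05. The tests and the Wilson, Newcombe, Woolf and median intervals were tried on simulated data. So were the intervals of unpooled density ratios and of pooled odds ratios. The Poisson intervals and the pooled density ratio were not. Uniqueness was measured with minimap2 2.31-r1302 on 75-base reads cut every 25 bases (mapping quality of at least 10). Named genes are those at the 10 widest members, up to 10 genes with 2 or more, every list gene with a member, 5 members each with most G4 or GATA motifs, closest to an end or just inside the limit, and 5 peaks just outside; some of these are not reported here. The members and lists were chosen with earlier results of these data known. Alternative peak sets, distances, ends, promoter rules and motif windows were tried.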

Additional observations from a re-analysis of the deposited data

How the results depend on the processing

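No paired analysis was possible because the list pools the replicates and holds no value for any of them, and for the same reason no replicate could be left out. Of 70 alternatives for the counts, ratios and shares, 65 stayed within the 95% interval of a ratio, share or difference, or within 1.5 times a count, and 5 did not. The number of peaks was 640 with all coding transcript ends, where the density ratio was 1.12 (1.03 to 1.22), and 228 within 500 bp. Against all other peaks, 1 of 3 shape measures passed. Within GC classes, chosen after seeing the data, 3 motifs had intervals without 1. The density ratio ranged from 1.12 to 1.34, upstream against downstream from 0.714 to 0.7825 (at 500 bp, 0.772 with an interval that included 1), the promoter share from 64.5 to 70.1% and its difference from 18.25 to 23.7 percentage points. Of 137 alternatives for single motifs and measures, 105 kept direction and call, 5 lost the call, 10 gained it and 17 turned direction.

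The odds ratio for width was 1.031 for peaks of at least 200 bp, 1.021 with all transcript ends and 1 without readthrough records. That for the poly(A) signal was 0.9713 with peaks merged, 0.9902 over 2 kb from starts, 0.9779 in whole peaks and 0.9978 in peaks with unique reads. RUNX gave 1.022 over 2 kb from starts and 1.048 within GC classes. Unique reads and readthrough records were also chosen after seeing the data. Against all other peaks, odds ratios turned to 0.693 for G4, 1.177 for GATA, 1.396 for AP-1, 0.5478 for SP/KLF, 0.4745 for ETS, 1.305 for RUNX, 0.8392 for GC and 0.4492 for CpG. That set includes promoter peaks. The cause was not tested for any of these. Without heights or depth, weak and strong peaks cannot be told apart.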
